A study of Mus musculus with 18 samples.

Results

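The subunits of Polycomb repressive complex 2 (PRC2) were followed in mouse embryonic stem cells (mESCs) that carried or lacked IκBα, and in the embryoid bodies (EBs) made from them. The members were chosen by name and not by any measured value, and comprised 10 of the 55487 genes in the count table, namely Ezh1, Ezh2, Suz12, Eed, Rbbp4, Rbbp7, Mtf2, Phf19, Jarid2 and Aebp2. All 10 passed the filter on low counts in every comparison. PRC2 methylates histone H3 on lysine 27 (H3K27), a mark of silenced developmental genes in pluripotent cells. Its catalytic subunit is EZH2 or the paralog EZH1, which is the less active methyltransferase and is more prominent in cells that no longer divide. SUZ12 is the scaffold, EED binds the finished mark and stimulates the enzyme, and RBBP4 and RBBP7 are histone chaperones shared with other chromatin complexes. The Polycomb-like proteins MTF2 and PHF19 define the form called PRC2.1, whereas JARID2 and AEBP2 define PRC2.2.

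Bulk RNA-seq was performed on ES-E14TG2a mESCs (0 hr, grown on gelatin with serum and leukemia inhibitory factor) and on EBs at 48 hr and 96 hr of differentiation without that factor. At each time there were 3 IκBα-WT (IkappBalpha+/+) and 3 IκBα-KO (IkappBalpha-/-) samples. IκBα-KO clones came from single cells edited with a pair of guides against exon 1 of Nfkbia and screened for absence of the protein, while IκBα-WT clones had received scrambled guides. Therefore each genotype is represented by 3 clones of 1 line, and the p-values measure the spread between these clones. The EB columns carry clone codes that the sample labels do not tie to a genotype. The EB libraries were therefore compared by stage only, and any difference between genotypes is part of their spread. The same codes occur at 48 hr and 96 hr, and the main stage fit did not model this pairing. The mESC columns carry clone numbers instead of codes, so mESC and EB libraries could not be paired.

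Libraries held between 28287582 and 40904247 counts on genes. In mESCs, Nfkbia was measured at 34.2, 35.1 and 25.3 counts per 1000000 counts (CPM) in the WT clones and at 10.2, 9.44 and 10.1 CPM in the KO clones (log2 fold change -1.67, SE 0.14, adjusted p = 0.00489, edgeR quasi-likelihood test), lower in every KO clone. In EBs it ranged from 7.31 to 14.9 CPM at 48 hr and from 4.97 to 23.0 CPM at 96 hr. Pou5f1, a defining pluripotency gene, was at 881 to 970 CPM in mESCs, 860 to 960 CPM in 48 hr EBs and 416 to 826 CPM in 96 hr EBs. The summed level of 7 pluripotency markers ran from 3180 to 4140 CPM in mESCs, 1450 to 2210 CPM at 48 hr and 628 to 1600 CPM at 96 hr. The summed level of 6 primitive streak and mesoderm markers, among them T, ran from 8.44 to 27.3 CPM, 11.8 to 74.2 CPM and 16.8 to 1130 CPM at the same stages. T itself, the defining gene of the streak, was at 0.708 CPM in the lowest 96 hr library and at 510 CPM in the highest. The 96 hr EBs were therefore far from uniform, and the part of cell makeup in the PRC2 results was not tested.

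Since most members moved together across the stages, their promoters were examined for sequence matches. All 10 members matched a RefSeq window of 250 bases before to 50 bases after a transcription start (GRCm38.p6), with 14 windows in total. The median GC content was 63.5% in the member windows and 52.7% in all 32851 windows, and the median number of CpG dinucleotides was 23.5 against 7. A CCAAT box (CCAAT, both strands) was present in 9 member windows of 8 genes, compared to 37.4% of all windows. An E2F match (TTTCGCGC or TTTGGCGC, both strands) was present in the Ezh2 window alone, compared to 0.813% of all windows. A match to the κB consensus, the DNA motif read by NF-κB, was found on either strand in 1 window each of Phf19, Aebp2, Jarid2 and Rbbp7, compared to 8.46% of all windows. No member window held CCGGAAGT (ETS), which occurred in 3.89% of all windows. These are matches of letters and not measured binding. The Jarid2 window at chr13:44731021-44731320, which is not shown, held no κB match. Rbbp4, which was also lower in the KO mESC clones, had no κB match either. Phf19, Aebp2 and Rbbp7 had κB matches and did not pass between KO and WT mESCs. A link between these matches and the KO results was not tested. The windows of 4 genes that the results turn on are shown 5′ to 3′ on the strand of the gene, with matches in capitals: Ezh2 at chr6:47594981-47595280 (minus strand), with an E2F match and CCAAT boxes, and its paralog Ezh1 at chr11:101226414-101226713 (minus strand), with none of these motifs, because they changed in opposite directions; Eed at chr7:89980927-89981226 (minus strand), with 1 CCAAT box, because it fell most; and Jarid2 at chr13:44730524-44730823 (plus strand), with a κB match followed by a CCAAT box, because it was lower in the KO clones.
Ezh2: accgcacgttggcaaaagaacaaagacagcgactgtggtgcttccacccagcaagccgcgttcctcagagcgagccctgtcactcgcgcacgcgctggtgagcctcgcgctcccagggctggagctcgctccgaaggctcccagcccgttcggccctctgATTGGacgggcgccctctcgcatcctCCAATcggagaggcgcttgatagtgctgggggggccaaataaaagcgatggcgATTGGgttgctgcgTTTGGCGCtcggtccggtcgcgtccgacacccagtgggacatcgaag
Ezh1: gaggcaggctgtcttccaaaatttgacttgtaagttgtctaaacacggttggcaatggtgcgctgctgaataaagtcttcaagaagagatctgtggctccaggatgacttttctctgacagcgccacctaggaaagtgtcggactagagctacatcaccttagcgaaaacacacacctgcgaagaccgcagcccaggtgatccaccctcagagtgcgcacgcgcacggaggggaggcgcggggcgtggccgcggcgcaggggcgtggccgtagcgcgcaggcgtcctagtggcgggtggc
Eed: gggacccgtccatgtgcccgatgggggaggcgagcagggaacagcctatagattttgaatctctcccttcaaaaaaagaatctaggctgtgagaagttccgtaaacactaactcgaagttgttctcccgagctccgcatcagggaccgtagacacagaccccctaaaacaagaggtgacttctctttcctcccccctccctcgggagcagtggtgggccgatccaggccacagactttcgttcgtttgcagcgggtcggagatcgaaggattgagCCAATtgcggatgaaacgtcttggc
Jarid2: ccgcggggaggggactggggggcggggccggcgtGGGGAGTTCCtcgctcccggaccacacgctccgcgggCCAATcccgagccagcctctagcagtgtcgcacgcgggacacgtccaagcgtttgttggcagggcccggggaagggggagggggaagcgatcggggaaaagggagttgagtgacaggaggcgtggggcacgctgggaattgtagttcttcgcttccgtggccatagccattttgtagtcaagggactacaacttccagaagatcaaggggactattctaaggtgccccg

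PRC2 subunit transcripts differed widely in level. To compare genes, CPM were divided by the length of the union of a gene's exons in kilobases (CPM per kb). In the 6 mESC libraries, Rbbp7 had the highest level, with a mean of 182 CPM per kb (167 to 202), followed by Mtf2 with 104 (100 to 109). Eed with 89.3 (83.9 to 96.2) and Suz12 with 88.2 (85.1 to 92.1) could not be separated, and neither could Jarid2 with 71.8 (57.6 to 84.3) and Rbbp4 with 70.2 (61.2 to 81.6). The ranges of Eed and Jarid2 also touched. Ezh2 was lower, with 30.8 CPM per kb (29.5 to 32.2), and Aebp2 lower still, with 15.3 (13.2 to 16.6). Ezh1 with 5.56 (4.77 to 6.10) and Phf19 with 2.32 (1.83 to 2.63) closed the order. In 96 hr EBs the order in the middle had changed. Rbbp7 still led with 189 CPM per kb (142 to 239), while Rbbp4 with 55.2, Suz12 with 51.0, Jarid2 with 44.5 and Mtf2 with 39.9 had overlapping ranges, as each of these genes except Rbbp4 varied strongly between libraries. Eed had dropped to 29.4 (23.0 to 35.7) and overlapped with Ezh2 at 24.7 (23.8 to 26.8), and the lowest Aebp2 level (7.89) was under the highest Ezh1 level (7.99). These orders depend on the length used, since dividing by the longest transcript placed Eed (165 CPM per kb) well above Suz12 (99.7) in mESCs.

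**Figure D1:**
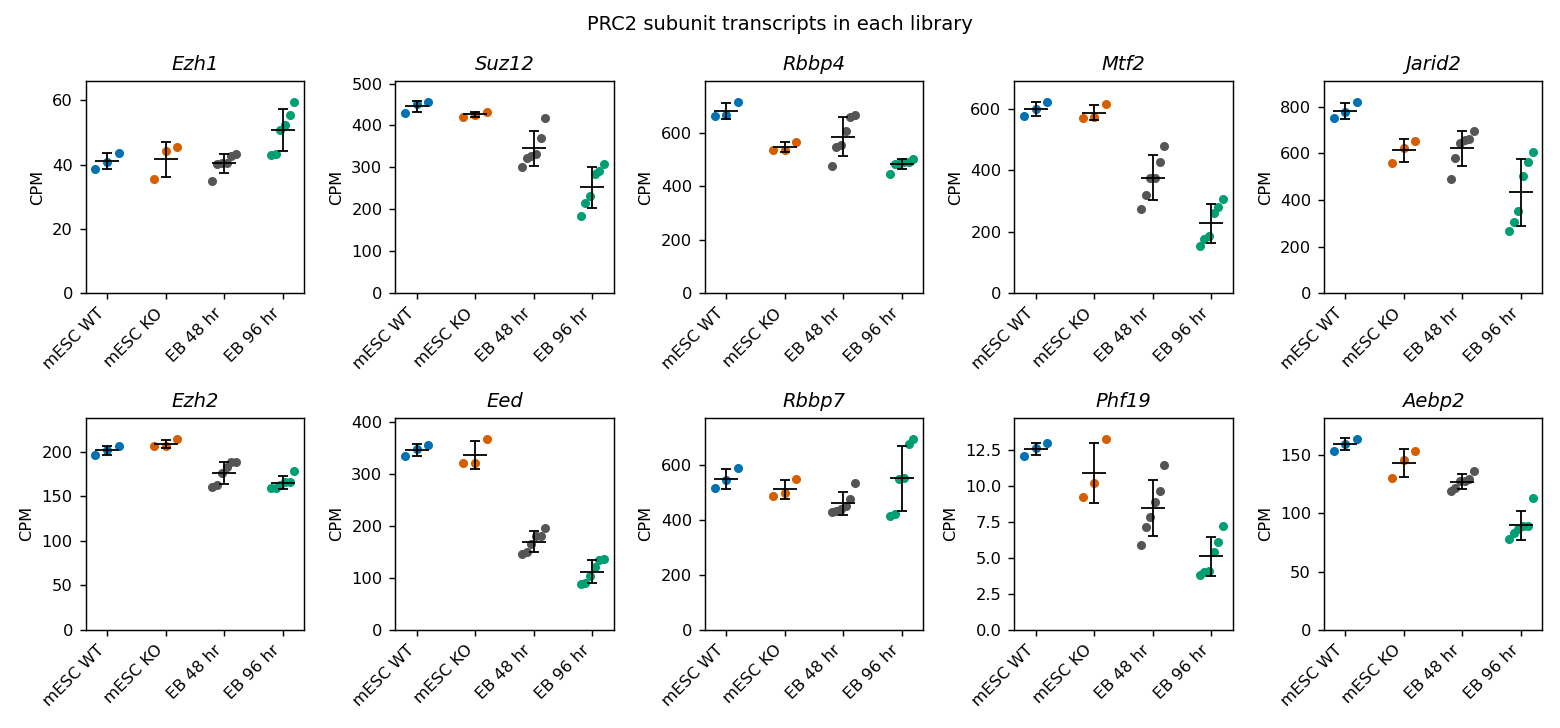
Level of each PRC2 subunit (y axes, CPM, starting at 0) in every library of mESC WT (3), mESC KO (3), EB 48 hr (6) and EB 96 hr (6). Points are libraries, sorted by level within a group, and the bar with its whiskers is the mean ± SD. Eed and Mtf2 step down at each stage, Ezh1 is higher at 96 hr, and Jarid2 spreads from 266 to 604 CPM at 96 hr.

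To determine how PRC2 expression follows the exit from pluripotency, stages were compared in 1 edgeR quasi-likelihood fit over all 18 libraries, with an adjusted p under 0.05 as the threshold. By 96 hr, 8 of the 10 members had fallen relative to mESCs and only Ezh1 had risen, while Rbbp7 did not pass the test. Over all genes, 43.2% were called in that comparison, 23.6% higher and 19.6% lower. The median log2 fold change of the members was -0.72, beside 0.03 over all genes tested. The summed level of the 10 members had a median of 3590 CPM in mESCs (3370 to 3870), 2900 CPM at 48 hr (2680 to 3110) and 2350 CPM at 96 hr (2020 to 2640), without overlap between the stages. In bulk RNA, fewer cells expressing a gene and less RNA per cell cannot be told apart.

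The decline occurred in 2 steps. Between mESCs and 48 hr EBs, 5 members fell (Eed, Mtf2, Suz12, Aebp2 and Ezh2) and none rose, where 28.3% of all genes were called, 12.7% lower and 15.6% higher. The median of the members was -0.23, beside 0.03 over all genes. Between 48 hr and 96 hr, 7 members fell (Phf19, Mtf2, Eed, Jarid2, Aebp2, Suz12 and Rbbp4) and Ezh1 rose, where 28.1% of all genes were called, 14% lower and 14.1% higher. The median was -0.48, beside -0.03 over all genes. These comparisons share libraries and are given side by side. Libraries of both stages did not overlap for 4 members from mESCs to 48 hr (16.7% of all genes), for 2 members from 48 hr to 96 hr (8.94%) and for 7 members from mESCs to 96 hr (22.9%). A called change of more than 1 on the log2 scale was found for Eed alone at 48 hr (9.57% of all genes; -1.01, but -0.97 without 48 hr library E14, and also under 1 in size without 48 hr library H9, KO mESC clone 3 or WT mESC clone 1), for no member from 48 hr to 96 hr (11.8%), and for Eed, Mtf2 and Phf19 from mESCs to 96 hr (20.6%).

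The catalytic subunits changed in opposite directions. Ezh2 (ENSMUSG00000029687, chr6:47530139-47595341) had a lowest, median and highest level of 197, 206 and 215 CPM in mESCs, of 161, 180 and 189 CPM at 48 hr, and of 159, 164 and 179 CPM at 96 hr. Every EB library was below every mESC library, whereas both EB stages overlapped. Ezh2 fell by 0.22 on the log2 scale at 48 hr (SE 0.05, adjusted p = 0.00359) and by 0.32 at 96 hr relative to mESCs (SE 0.05, adjusted p = 9.21e-05), which is 19.6% lower. The step from 48 hr to 96 hr did not pass (log2 fold change -0.10, adjusted p = 0.158). Ezh1 (ENSMUSG00000006920, chr11:101191115-101226463) was at 35.5, 42.2 and 45.4 CPM in mESCs, at 34.9, 40.6 and 43.4 CPM at 48 hr, and at 43.0, 51.5 and 59.4 CPM at 96 hr. Only the lowest 96 hr libraries reached into the range of the earlier stages. Ezh1 rose by 0.33 from 48 hr to 96 hr (SE 0.09, adjusted p = 0.0127) and by 0.29 from mESCs to 96 hr (adjusted p = 0.0139), and had a log2 fold change of -0.04 from mESCs to 48 hr (adjusted p = 0.815).

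Among the core partners, Eed showed the largest decrease of all members. Eed (ENSMUSG00000030619, chr7:89954654-89980983), the reader of methylated H3K27, was at 321, 342 and 368 CPM in mESCs, at 146, 173 and 197 CPM at 48 hr, and at 87.8, 113 and 136 CPM at 96 hr. The 3 stages did not overlap. Eed fell by 1.01 at 48 hr (SE 0.11, adjusted p = 3.88e-06), by a further 0.60 at 96 hr (adjusted p = 0.00104), and by 1.60 in total (SE 0.11, adjusted p = 2.71e-08), which left 0.329 of the mESC level. Suz12 (ENSMUSG00000017548, chr11:79993106-80034123), the scaffold, was at 421, 432 and 455 CPM in mESCs, at 301, 329 and 417 CPM at 48 hr, and at 185, 257 and 308 CPM at 96 hr. All EB libraries were below all mESC libraries. It fell by 0.34 at 48 hr (adjusted p = 0.0265), by 0.45 from 48 hr to 96 hr (adjusted p = 0.00584) and by 0.79 in total (SE 0.11, adjusted p = 2.07e-05). Its first step did not pass without 48 hr library E14 (adjusted p = 0.0607).

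The histone chaperones behaved differently from each other. Rbbp4 (ENSMUSG00000057236, chr4:129307100-129335370) was at 536, 614 and 714 CPM in mESCs, at 475, 581 and 667 CPM at 48 hr, and at 446, 487 and 502 CPM at 96 hr. All 96 hr libraries lay below all mESC libraries, but overlapped with 48 hr. It fell by 0.28 from 48 hr to 96 hr (SE 0.07, adjusted p = 0.0067) and by 0.34 from mESCs to 96 hr (adjusted p = 0.000717). Rbbp7 (ENSMUSG00000031353, chrX:162760402-162779092) was at 486, 530 and 588 CPM in mESCs, at 429, 444 and 535 CPM at 48 hr, and at 414, 550 and 695 CPM at 96 hr. The 96 hr libraries spanned both earlier stages, and no step passed (adjusted p = 0.201 at 48 hr, 0.0956 from 48 hr to 96 hr and 0.721 in total). Without 96 hr library D4 or E2 the rise from 48 hr to 96 hr passed (log2 fold change 0.33 in both, adjusted p = 0.0301 and 0.0281), and the fall at 48 hr passed in a fit of only the libraries compared (adjusted p = 0.0253). Of 13 subunits of other complexes that use these chaperones, 6 rose and 2 fell at 48 hr (15.6% and 12.7% of all genes). From 48 hr to 96 hr, none rose and 5 fell (14.1% and 14% of all genes). Chd4, the remodeller of the NuRD complex, rose by 0.60 (adjusted p = 3.44e-06) and then fell by 0.26 (adjusted p = 0.00762), while the deacetylase gene Hdac2 fell by 0.70 at 48 hr (adjusted p = 1.52e-06).

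Both PRC2.1 subunits declined. Mtf2 (ENSMUSG00000029267, chr5:108065674-108109004), which brings PRC2 to unmethylated CpG islands, was at 571, 587 and 621 CPM in mESCs, at 274, 374 and 479 CPM at 48 hr, and at 153, 223 and 306 CPM at 96 hr. Each EB library was below each mESC library. Mtf2 fell by 0.66 at 48 hr (SE 0.16, adjusted p = 0.00459), by 0.72 from 48 hr to 96 hr (adjusted p = 0.00358) and by 1.38 in total (SE 0.16, adjusted p = 4.08e-06). Its paralog Phf19 (ENSMUSG00000026873, chr2:34893757-34914026), a reader of methylated H3K36, was at 9.24, 12.3 and 13.2 CPM in mESCs, at 5.86, 8.36 and 11.4 CPM at 48 hr, and at 3.77, 4.73 and 7.20 CPM at 96 hr. All 96 hr libraries were below all mESC libraries. Phf19 fell by 0.73 from 48 hr to 96 hr (SE 0.19, adjusted p = 0.00809) and by 1.20 in total (adjusted p = 6.56e-05), and missed the threshold at 48 hr with a log2 fold change of -0.47 (adjusted p = 0.0674), which the DESeq2 Wald test called (adjusted p = 0.0282).

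Both PRC2.2 subunits had a larger fall in the second step than in the first, as had Mtf2, Phf19, Suz12 and Rbbp4. The steps were not tested against each other. Jarid2 (ENSMUSG00000038518, chr13:44729474-44921643), a cofactor that recruits PRC2 and stimulates it, was at 560, 702 and 819 CPM in mESCs, at 490, 649 and 696 CPM at 48 hr, and at 266, 426 and 604 CPM at 96 hr. The stages overlapped, and the 96 hr libraries varied most of all members, with an SD of 0.50 on the log2 scale. Jarid2 fell by 0.68 from mESCs to 96 hr (SE 0.17, adjusted p = 0.0034). Its fall of 0.52 from 48 hr to 96 hr (adjusted p = 0.0278) missed the threshold when any 1 of 6 EB libraries was left out, with adjusted p values between 0.0526 and 0.0831, and these were D4, E2 and H7 of 48 hr and E14, H7 and H9 of 96 hr. Aebp2 (ENSMUSG00000030232, chr6:140622663-140678472), a zinc finger partner, was at 130, 154 and 164 CPM in mESCs, at 119, 128 and 136 CPM at 48 hr, and at 77.7, 87.6 and 113 CPM at 96 hr. All 96 hr libraries lay below all earlier libraries. Aebp2 fell by 0.25 at 48 hr (adjusted p = 0.0205, and 0.0554 without KO mESC clone 3), by 0.50 from 48 hr to 96 hr (SE 0.08, adjusted p = 0.000239) and by 0.75 in total (adjusted p = 9.38e-07).

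**Figure D2:**
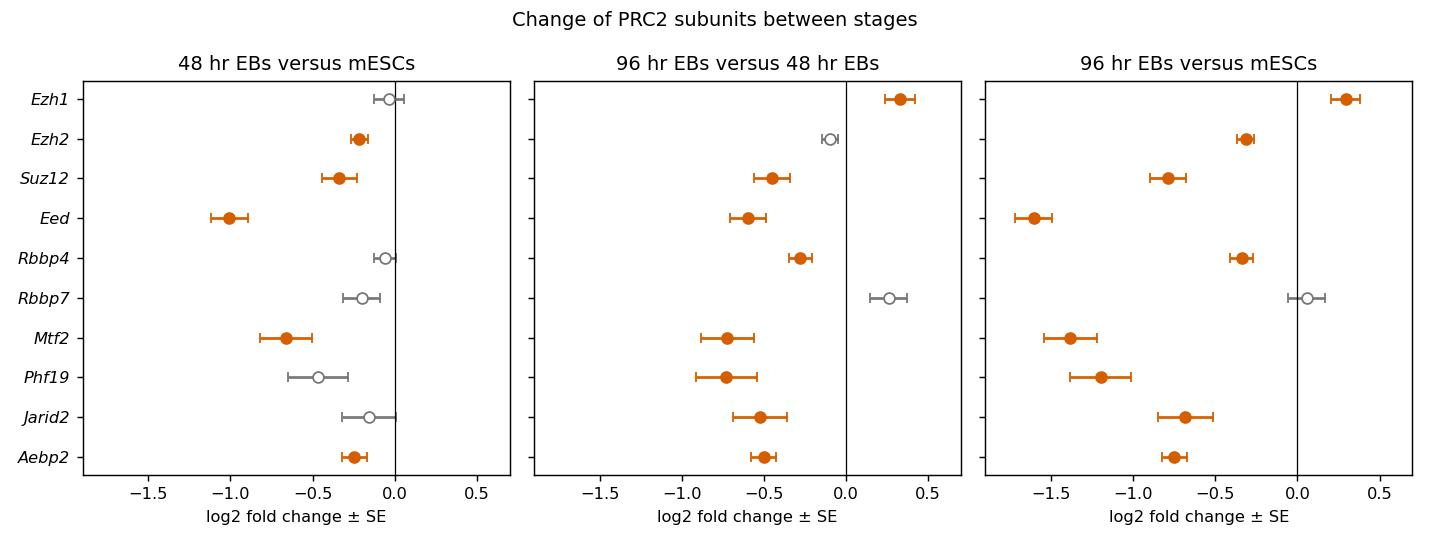
Log2 fold change ± SE (x axes) of the 10 subunits (rows) between 48 hr EBs and mESCs, 96 hr and 48 hr EBs, and 96 hr EBs and mESCs. Filled points passed an adjusted p of 0.05 and open points did not. From mESCs to 96 hr, 8 subunits fell, with Eed at -1.60, and Ezh1 rose by 0.29.

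Ratios between subunits with related roles were calculated in each library to show how the composition of the transcripts changed. The Ezh2-to-Ezh1 ratio of CPM per kb had a median of 5.46 in mESCs (5.02 to 6.48), 4.96 at 48 hr (4.27 to 5.20) and 3.49 at 96 hr (3.20 to 4.30). Every 96 hr library was below every mESC library. The Suz12-to-Eed ratio rose from 1.02 in mESCs (0.885 to 1.05) to 1.60 at 48 hr (1.39 to 1.66) and 1.71 at 96 hr (1.61 to 1.99), with EBs at both stages above all mESCs. The shift between the stages does not depend on gene length, but the ratio itself does, since the longest transcripts gave 0.618, 0.973 and 1.04. The Rbbp4-to-Rbbp7 ratio was 0.396, 0.426 and 0.282, with overlap between all stages. The Mtf2-to-Phf19 ratio was 42.4, 36.7 and 39.8, and the Jarid2-to-Aebp2 ratio was 4.51 in mESCs and 4.70 at 96 hr. Both overlapped between all stages, and in 96 hr EBs the Jarid2-to-Aebp2 ratio ranged from 3.48 to 6.92.

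**Figure D3:**
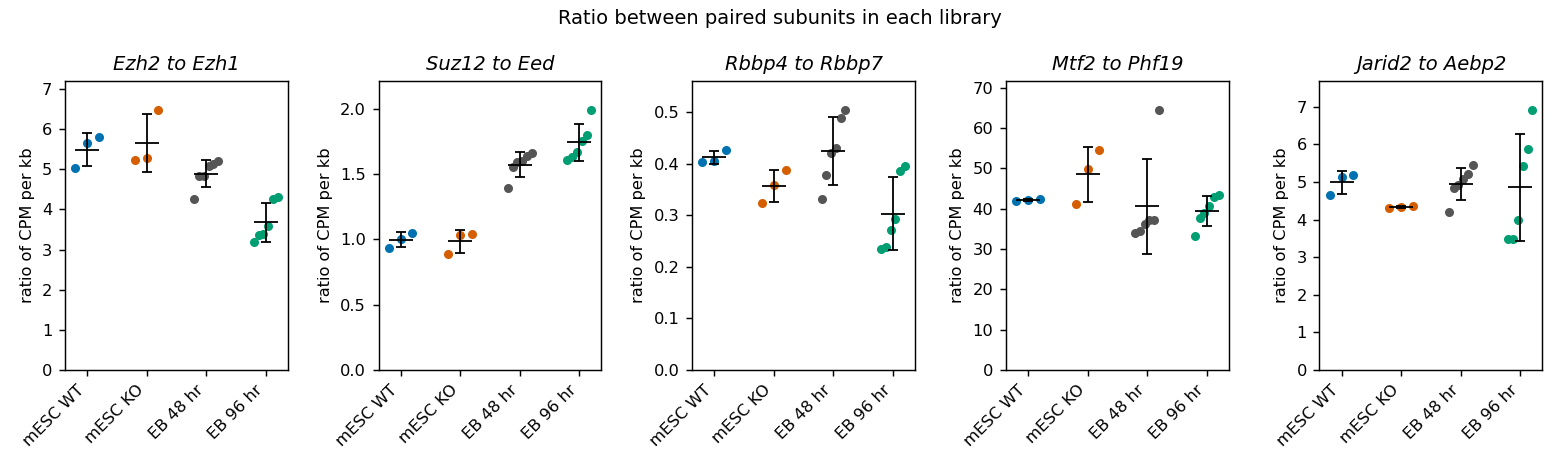
Ratio of CPM per kb (y axes, starting at 0) between paired subunits in every library, sorted within a group, with the mean ± SD per group. The Suz12-to-Eed ratio is above all mESCs in every EB library, and the Ezh2-to-Ezh1 ratio is below all mESCs in every 96 hr library.

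To address whether loss of IκBα changed PRC2 expression in pluripotent cells, KO and WT mESC clones were compared. Jarid2 and Rbbp4 were lower in KO clones, and the other 8 members did not pass the test. Of all 21843 genes tested, 4.79% were called, 1.69% lower and 3.09% higher, and 1.70% were called with a change of more than 1 on the log2 scale, which no member reached. This count was unstable, as leaving out 1 clone moved it from 1046 genes to between 0 (without WT clone 2, by edgeR, with 3104 genes at an unadjusted p under 0.05) and 3736 (without KO clone 2), and the DESeq2 Wald test called 2133. The median log2 fold change of the members was -0.09, beside 0.02 over all genes. WT and KO clones did not overlap for Jarid2 and Rbbp4, and for Aebp2 the lowest WT and the highest KO clone were equal to 4 digits, while 28.9% of all genes were without overlap.

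Jarid2 was measured at 751, 819 and 778 CPM in WT clones and at 624, 560 and 653 CPM in KO clones. The highest KO clone was below the lowest WT clone. Jarid2 was lower by 21.8% (log2 fold change -0.35, SE 0.08, adjusted p = 0.0401). Rbbp4 was at 662, 666 and 714 CPM in WT clones and at 566, 537 and 536 CPM in KO clones, again without overlap. It was lower by 19.7% (log2 fold change -0.32, SE 0.06, adjusted p = 0.028). Both calls were narrow. They were lost when any 1 clone other than KO clone 2 was left out, with adjusted p values of up to 0.199 for Jarid2 and 0.149 for Rbbp4, while the log2 fold changes stayed between -0.41 and -0.29 and between -0.35 and -0.29.

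The remaining members had small differences. Ezh2 was at 202 ± 4.80 CPM in WT and 209 ± 4.74 CPM in KO clones (SD, n = 3), a log2 fold change of 0.05 with an SE of 0.06 (adjusted p = 0.667, edgeR). The log2 fold change was -0.07 for Suz12 (adjusted p = 0.537), -0.04 for Eed (0.796), -0.03 for Mtf2 (0.841), -0.11 for Rbbp7 (0.421) and 0.02 for Ezh1 (0.94). Aebp2 was at 154, 160 and 164 CPM in WT and at 130, 146 and 154 CPM in KO clones, ordered by level, with a log2 fold change of -0.15 (adjusted p = 0.331). The least abundant member, Phf19, had the widest error, with a log2 fold change of -0.21 and an SE of 0.15 (adjusted p = 0.484). Epiblast markers also differed between the genotypes, since their summed level was 617 to 971 CPM in WT and 376 to 450 CPM in KO clones. Of these 4 markers, 3 were called lower (1.69% of all genes). Without WT clone 2 no gene was called, these markers included. The summed level of 5 primitive endoderm markers was 9.66 to 13.9 CPM in WT and 11.6 to 107 CPM in KO clones, none of them called. The part of either in the lower Jarid2 and Rbbp4 was not tested. For the other genes in the 10 Mb window that holds Jarid2, the median of log2 CPM minus the WT mean was 0 to 0.16 in the KO clones. In the window of Rbbp4 it was -0.01 to 0.03. A change of copy number at either gene was not tested.

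**Figure D4:**
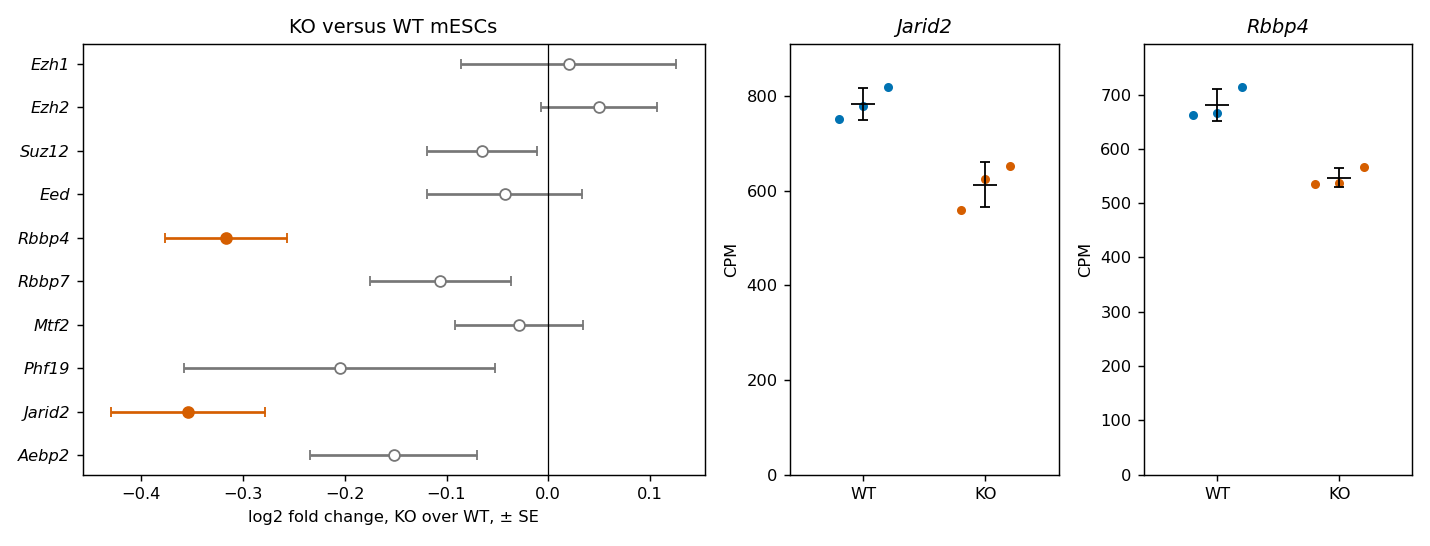
Left, log2 fold change of KO over WT mESCs ± SE (x axis) of the 10 subunits, with filled points for an adjusted p under 0.05. Right, CPM of Jarid2 and Rbbp4 (y axes, starting at 0) in the 3 WT and 3 KO clones, with mean ± SD. KO clones of both genes lie below all WT clones.

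Genes that work with or against PRC2 were then examined from lists made with earlier results of these data known. Of 7 further PRC2 partners, 6 were tested, and none passed between KO and WT mESCs. At 48 hr 3 of them fell and none rose (12.7% and 15.6% of all genes). By 96 hr 4 had fallen relative to mESCs and none had risen (19.6% and 23.6% of all genes). The median log2 fold change of the partners by 96 hr was -0.47. Epop, which links PRC2.1 to elongin BC and is active in pluripotent cells, was at 199, 219 and 296 CPM in mESCs (lowest, median and highest), at 75.0, 109 and 143 CPM at 48 hr, and at 59.0, 82.0 and 97.2 CPM at 96 hr. All EB libraries lay below all mESC libraries. It fell by 1.10 at 48 hr (SE 0.17, adjusted p = 0.000118) and by 1.52 at 96 hr relative to mESCs (adjusted p = 3.13e-06). Eloc, the elongin C gene, fell at both steps, by 0.46 (adjusted p = 5.78e-06) and 0.31 (adjusted p = 0.000539). Lcor fell by 0.96 from 48 hr to 96 hr (adjusted p = 0.000621), and Elob, the elongin B gene, by 0.32 (adjusted p = 0.00135). Lcorl fell by 0.38 at 48 hr (adjusted p = 0.0435) and then rose by 0.57 (adjusted p = 0.00519). The Polycomb-like gene Phf1 did not pass in any comparison, with a log2 fold change of -0.32 at 48 hr (adjusted p = 0.09) and of 0.00 from mESCs to 96 hr (adjusted p = 0.99).

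Of 10 genes for enzymes that remove H3K27 methylation or place or regulate opposing marks, 5 rose and none fell at 48 hr. Of all genes, 15.6% rose and 12.7% fell at that step. From 48 hr to 96 hr, 2 of the 10 rose and 4 fell (14.1% and 14% of all genes). By 96 hr relative to mESCs, 6 had risen and 1 had fallen (23.6% and 19.6% of all genes). Kdm6b, an H3K27 demethylase gene, was at 38.5, 49.4 and 69.5 CPM in mESCs, at 77.0, 91.2 and 114 CPM at 48 hr, and at 109, 120 and 160 CPM at 96 hr. All EB libraries exceeded all mESC libraries. It rose by 0.90 at 48 hr (SE 0.11, adjusted p = 9.69e-06) and by 1.33 in total (adjusted p = 1.22e-07). Kdm6b was also higher in KO than in WT mESCs (log2 fold change 0.51, adjusted p = 0.0389). That call was lost without WT clone 2, when no gene at all was called. Kdm6a, the X-linked demethylase gene, fell by 0.31 from 48 hr to 96 hr (adjusted p = 0.00139). Nsd1, whose product methylates H3K36, was lower in KO mESCs (log2 fold change -0.40, adjusted p = 0.0133, also lost without WT clone 2), rose by 0.73 at 48 hr (adjusted p = 6.76e-07) and fell by 0.57 by 96 hr (adjusted p = 3.31e-05). Nsd2 rose by 1.12 from 48 hr to 96 hr (adjusted p = 0.00383).

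Developmental regulators known to carry H3K27me3 in mESCs were mostly at low levels. T, Eomes, Gata4, Gata6 and Sox17 among them are also streak or endoderm markers. Of 28, 4 rose and 2 fell at 48 hr, 10 rose and 2 fell from 48 hr to 96 hr, and 17 had risen and 1 had fallen at 96 hr relative to mESCs (median log2 fold change 2.29, beside 0.03 over all genes). Of all genes, 28.3%, 28.1% and 43.2% were called in these comparisons, so the share called among the regulators was below that of all genes at 48 hr. Their summed level was 32.2 to 91.5 CPM in mESCs, 51.9 to 115 CPM at 48 hr and 66.6 to 1050 CPM at 96 hr. Of those that had risen by 96 hr, only Pax3, Lhx2, Eomes and T had no overlap with mESCs. Over all genes, 22.9% had no overlap between these stages, in either direction. Pax3 had only 0 to 2 counts in mESC libraries and 4 to 31 counts at 96 hr, and Lhx2 had a highest of 1.02 CPM at 96 hr. Some rises lay in few libraries or near the floor. Hand1 had a median of 0.754 CPM in mESCs and of 0.852 CPM at 96 hr, where its highest was 87.1 CPM. Hand2 had a median of 0.0297 CPM and a highest of 11.1 CPM at 96 hr. Meis2, a homeobox gene, was at 2.00, 4.55 and 17.6 CPM in mESCs, at 12.9, 17.9 and 40.0 CPM at 48 hr, and at 11.3, 22.5 and 44.9 CPM at 96 hr. The endoderm gene Foxa2 rose by 4.51 from 48 hr to 96 hr (SE 1.03, adjusted p = 0.00436), and T had a log2 fold change of 5.55 (SE 1.48, adjusted p = 0.0108). Neurog1 went the other way and fell by 2.61 from mESCs to 96 hr (adjusted p = 0.00381). It was near the floor, with 2 to 15 counts in mESC libraries and 0 to 3 counts at 96 hr, and the stages overlapped. In KO mESCs, 21 of the 28 passed the count filter, and 3 rose and none fell, where 3.09% of all genes were called higher. These were the cell cycle inhibitor genes Cdkn2a (log2 fold change 2.09, SE 0.19, adjusted p = 0.00489) and Cdkn2b (1.39, adjusted p = 0.0337), and Meis2 (1.98, adjusted p = 0.0441). All 3 calls were lost without WT clone 2, when no gene at all was called.

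Ezh2 is known as a gene of dividing cells, so genes of S phase and mitosis were compared beside it. Of 18, 7 rose and 1 fell at 48 hr, when Ezh2 fell (15.6% and 12.7% of all genes). From 48 hr to 96 hr, when Ezh2 did not pass, 1 rose and 10 fell (14.1% and 14% of all genes). From mESCs to 96 hr, when Ezh2 fell, 4 had risen and 7 had fallen (23.6% and 19.6% of all genes). The cyclin B1 gene Ccnb1 had the lowest log2 fold change of the 18 from mESCs to 96 hr (-0.64, adjusted p = 6e-06). Their summed level had a median of 6730 CPM in mESCs (6630 to 6830), 7380 CPM at 48 hr (6530 to 7530) and 6340 CPM at 96 hr (5610 to 7220), and these ranges overlapped. Mcm2, part of the replicative helicase, rose by 0.53 at 48 hr (adjusted p = 2.9e-05) and fell by 0.37 by 96 hr (adjusted p = 0.00144). Across the 18 libraries and the 13176 genes whose counts averaged 50 or more, the log2 CPM most like those of Ezh2 included those of Kif22 and Uqcrb (Pearson r = 0.94 and 0.93). Those most like Ezh1 were Idua, Nyap1 and Gm3650 (r = 0.88, 0.86 and 0.86). These values describe libraries that fall into 3 stages, and the part of cell division in the Ezh2 changes was not tested.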

How the data were processed

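RNA-seq of 18 samples was used. The authors trimmed reads with Trim Galore 0.6.6, aligned them to GRCm38 with STAR 2.7.8, counted uniquely mapped reads over exons with featureCounts of Subread 2.0.1 and deposited whole-number counts for 55487 genes. Whether counting used strand is not given in the sources used here, and exons of Ezh2, Suz12, Eed, Mtf2, Rbbp4 and Rbbp7 overlap those of another gene (1578 bases in Rbbp4, at most 395 in the others). The values that the authors normalized on a log2 scale were not used.

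A gene was kept where its counts summed to 10 or more in a fit, which left 21843 genes in the KO and WT mESCs and 25318 in all 18 libraries. Library sizes were scaled by TMM and genes were tested with the quasi-likelihood test of edgeR 4.0.16 in R 4.3.3, with Benjamini-Hochberg adjustment over all genes tested. KO and WT mESCs were fitted alone, and stages were fitted over the 18 libraries with mESCs as the mean of both genotypes. SEs were derived from the log2 fold change and the F statistic. Levels are TMM-scaled CPM. Columns named WT or KO without a stage were taken as mESCs. EB columns have clone codes without a genotype in the labels, so they were grouped by stage alone, and no genotype was read from measured values. Clone codes paired the EB stages (correlation of deviations 0.40 to 0.73). No libraries were duplicates. Members, gene lists and rules were chosen with earlier results of these data known. The genes named were the members, Nfkbia, members of the lists (those called, and the 2 largest and 2 smallest changes where useful), and the 3 genes most like Ezh2 and Ezh1, of which 1 is not reported here. Alternatives were DESeq2 1.42.0 size factors and Wald test, other filters, a fold change threshold, replicate blocks, a window offset, other sets of libraries, leaving out each library, and the longest transcript as length.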

Additional observations from a re-analysis of the deposited data

Results flagged for a closer look

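Over 20 groups of 6 EB libraries (10 members at each of 2 stages), 3 held a library far from the others by Dixon's 95% criterion, where chance gives about 1 in 20. At 96 hr, Ezh2 was at 179 CPM in library D4, with the nearest at 166 CPM. Aebp2 was at 113 CPM in library E3, with the nearest at 89.3 CPM. Rbbp4 was at 446 CPM in the same library E3, with the nearest at 482 CPM.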

How the results depend on the processing

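From mESCs to 96 hr, 9 members were called in every alternative fit and with any library left out. Members called ranged from 4 to 6 at 48 hr and from 7 to 9 from 48 hr to 96 hr when 1 library was left out, and genes called from 6103 to 7753, from 5308 to 8734, and from 9753 to 11811 in the 3 stage comparisons. A log2 fold change over 1 left 372 genes and 0 members in KO against WT mESCs, 2422 and 1 at 48 hr (Eed, which was under 1 without any of 4 libraries), 2986 and 0 from 48 hr to 96 hr, and 5225 and 3 (Eed, Mtf2 and Phf19) at 96 hr against mESCs. Between KO and WT mESCs, the DESeq2 Wald test called 2133 genes and the same 2 members, and a replicate block of clone numbers 631 genes and 0 members by edgeR (adjusted p = 0.0721 for Jarid2 and 0.0641 for Rbbp4, both among the 4067 genes with an unadjusted p under 0.05). Same-numbered WT and KO clones did not deviate together (correlation -0.12 to -0.01). Whether they share more than a number was not tested. Leaving out a clone gave 0 genes (without WT clone 2, with 3104 at an unadjusted p under 0.05) to 3736 genes (without KO clone 2) and 0 to 2 members. By the chi-square per degree of freedom between the counts of 2 libraries, KO clone 2 lay far from KO clones 1 and 3 (53.7 and 60.9). The value was 8.45 between KO clones 1 and 3, and 5.47 to 11.6 among WT clones. The cause of either was not tested. No library that was left out changed the direction of a called member.

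Of the members that were not called, Phf19 at 48 hr was called by DESeq2 (adjusted p = 0.0282), with the filterByExpr filter (0.048) and with only the compared libraries (0.0327), and so was Rbbp7 with the last (0.0253). Rbbp7 from 48 hr to 96 hr was called without 96 hr library D4 (0.0301) or E2 (0.0281). Jarid2 from 48 hr to 96 hr was lost without a filter (0.0694) and with only the compared libraries (0.0802). Directions turned for uncalled differences only. In KO mESCs the window offset gave -0.017 for Ezh1 and 0.009 for Mtf2. Leaving out a library moved Ezh1 between -0.039 and 0.117 in KO mESCs and between -0.086 and 0.004 at 48 hr, and Rbbp7 between -0.021 and 0.126 from mESCs to 96 hr. The longest transcript as length put the Suz12-to-Eed ratio at 0.618 in mESCs and 0.973 at 48 hr. The clone code block changed no call of a member from 48 hr to 96 hr. Counts per member were at least 126 in every library, lowest for Phf19.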

Other observations

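In 96 hr EBs, 7 of the 10 members had all of the libraries E2, D4 and E3 on one side of all of E14, H9 and H7. Jarid2 was at 502, 564 and 604 CPM in the libraries E2, D4 and E3, and at 266, 305 and 351 CPM in E14, H9 and H7. In the same order, Mtf2 was at 261, 306 and 281 CPM, and at 153, 185 and 177 CPM. Suz12 was at 283, 308 and 292 CPM, and at 185, 231 and 215 CPM. Eed was at 122, 136 and 135 CPM, and at 87.8, 89.8 and 104 CPM, and Phf19 at 5.38, 7.20 and 6.11 CPM, and at 4.09, 3.77 and 4.03 CPM. Ezh1 was at 55.4, 59.4 and 52.3 CPM, and at 43.4, 50.7 and 43.0 CPM. Rbbp7 was at 414, 421 and 547 CPM, and at 552, 675 and 695 CPM. The other 3 overlapped, with Ezh2 at 159, 179 and 159 CPM, and at 166, 163 and 166 CPM, Aebp2 at 86.4, 82.6 and 113 CPM, and at 77.7, 88.8 and 89.3 CPM, and Rbbp4 at 482, 502 and 446 CPM, and at 489, 485 and 491 CPM. At 48 hr, 3 members were divided by the same clone codes and 7, Jarid2 among them, overlapped. Eed was at 181, 197 and 182 CPM, and at 146, 150.5 and 165 CPM. Mtf2 was at 427, 479 and 374.1 CPM, and at 274, 320 and 373.9 CPM, and Rbbp4 at 555, 547 and 475 CPM, and at 608, 660 and 667 CPM. Jarid2 was at 656, 661 and 643 CPM, and at 490, 579 and 696 CPM. The sets were noticed in these values, the labels give no genotype for the codes, and no test was made. The share of all genes divided by these sets was not counted, so neither count can be read as particular to PRC2.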
